A study of Mus musculus with 14 samples.

Results

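Olfactory receptor gene regions are the stretches of chromatin that the authors listed as differing between sham and pressure-loaded hearts and that lie at genes of the Olfr family. A listed region was taken as a member when it overlapped the body, or the 2500 bp on either side, of a protein-coding gene whose symbol begins with Olfr. This gave 4434 of the 1186054 regions on chromosomes 1 to 19, X and Y, or 0.374%. Of them, 1131 came from the G9a table of 388424 regions, 1299 from the H3K9me2 table of 245088 and 2004 from the H3K27me3 table of 552542. Of 1110 such genes in the RefSeq gene table of GRCm38.p6, 1109 could be placed on these chromosomes. Olfr100 was listed with coordinates outside them and could not be used.

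The series measured G9a, H3K9me2 and H3K27me3 by chromatin immunoprecipitation and sequencing in cell populations enriched for cardiomyocytes, the contracting muscle cells of the heart. All mice were C57BL/6J. Hearts of 1 group were labelled sham, with no treatment, and those of the other had been under transverse aortic constriction (TAC), a surgical narrowing of the aorta that loads the left ventricle, for 1 week. Each antibody had 2 biological replicates per group, and each group had 1 input library, for which the tables hold no values. No source used here gives the age or sex of the mice or the number of hearts behind a library, and enrichment for cardiomyocytes leaves room for other cells of the heart. Fewer cells of a type and less mark per cell cannot be told apart in such bulk chromatin.

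Each line of a table holds 4 whole-number values, in 2 pairs of libraries, and no table says which pair is sham. Directions are therefore given as higher in the first or in the second pair, and no statement below says which of them is TAC. Nor is it stated that the first pair is the same condition in all 3 tables. Directions called shared or opposite between tables below compare the pairs in the order deposited. The scaling of the values is not stated either, so they are given as deposited, without a unit, and the sequencing depth behind them is unknown. Library sums over a whole table lay between 36881071 and 48327896 in G9a, between 22175663 and 23973355 in H3K9me2 and between 112764904 and 143213031 in H3K27me3. In the G9a table the first library of the second pair stood apart, with 9.34% of its values at 0 over all regions against 0.163% to 1.40% in the other 3 libraries.

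Olfactory receptors are G protein-coupled receptors, and their genes form the largest gene family of the mouse. They lie in clusters spread over most chromosomes, have a short coding sequence without introns, and are read by sensory neurons of the nose, each of which chooses a single receptor and keeps the others silent under H3K9 methylation. G9a, encoded by Ehmt2, adds mono- and dimethyl marks to H3K9, while H3K27me3 is the mark of the Polycomb repressive complex. Outside the nose most of these genes are silent. Class I receptors resemble those of fish and sit together on chromosome 7 around the beta-globin genes, and class II receptors fill the other clusters.

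Promoters of 7 receptors show which DNA the listed regions touched. They are the promoters of well-known receptors that a region covered, with 3 more, added after their values were seen, at which a region named further on lay over the promoter. Sequences are those of RefSeq for GRCm38.p6, from 250 bases before to 50 bases after the annotated start, written 5′ to 3′ on the strand of the gene. At Olfr307 and Olfr1490 the 50 bases after the annotated start open with ATG. Such a start may be the start codon rather than the start of transcription, and promoter below means this window. Capitals mark the bases that lie inside the listed region.
Olfr544: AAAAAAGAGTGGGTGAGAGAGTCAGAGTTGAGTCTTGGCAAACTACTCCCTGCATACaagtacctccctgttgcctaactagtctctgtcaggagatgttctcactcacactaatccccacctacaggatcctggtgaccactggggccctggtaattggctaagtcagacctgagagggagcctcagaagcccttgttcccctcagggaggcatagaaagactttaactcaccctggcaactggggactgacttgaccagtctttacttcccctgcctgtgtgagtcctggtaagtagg
Olfr558: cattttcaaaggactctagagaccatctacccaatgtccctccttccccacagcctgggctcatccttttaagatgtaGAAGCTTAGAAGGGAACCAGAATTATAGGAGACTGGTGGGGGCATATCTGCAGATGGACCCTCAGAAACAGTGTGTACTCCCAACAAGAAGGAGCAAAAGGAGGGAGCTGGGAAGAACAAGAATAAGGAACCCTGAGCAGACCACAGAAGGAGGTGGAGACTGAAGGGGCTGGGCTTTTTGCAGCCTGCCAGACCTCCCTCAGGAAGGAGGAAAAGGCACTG
Olfr307: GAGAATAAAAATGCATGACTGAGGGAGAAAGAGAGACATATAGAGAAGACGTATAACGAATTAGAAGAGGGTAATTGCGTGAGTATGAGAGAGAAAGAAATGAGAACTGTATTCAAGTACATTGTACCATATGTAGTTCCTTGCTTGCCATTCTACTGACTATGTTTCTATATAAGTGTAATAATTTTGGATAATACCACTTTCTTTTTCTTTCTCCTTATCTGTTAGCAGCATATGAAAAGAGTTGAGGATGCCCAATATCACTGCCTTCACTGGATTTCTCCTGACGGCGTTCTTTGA
Olfr16: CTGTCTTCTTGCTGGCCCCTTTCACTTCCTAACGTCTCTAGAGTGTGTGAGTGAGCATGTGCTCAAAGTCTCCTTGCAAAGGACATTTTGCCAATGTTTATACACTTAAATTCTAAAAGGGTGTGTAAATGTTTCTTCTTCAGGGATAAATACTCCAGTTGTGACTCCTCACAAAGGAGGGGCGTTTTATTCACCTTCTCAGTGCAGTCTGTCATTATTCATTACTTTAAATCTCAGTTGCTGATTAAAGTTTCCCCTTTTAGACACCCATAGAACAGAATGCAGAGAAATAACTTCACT
Olfr1490: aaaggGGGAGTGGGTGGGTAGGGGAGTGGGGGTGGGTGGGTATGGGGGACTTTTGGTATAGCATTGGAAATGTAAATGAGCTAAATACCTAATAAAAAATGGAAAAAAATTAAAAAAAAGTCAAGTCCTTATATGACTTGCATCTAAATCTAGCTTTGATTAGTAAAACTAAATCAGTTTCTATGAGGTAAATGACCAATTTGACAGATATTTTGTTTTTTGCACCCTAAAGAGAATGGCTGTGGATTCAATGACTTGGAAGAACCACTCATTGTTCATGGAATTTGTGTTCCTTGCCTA
Olfr160: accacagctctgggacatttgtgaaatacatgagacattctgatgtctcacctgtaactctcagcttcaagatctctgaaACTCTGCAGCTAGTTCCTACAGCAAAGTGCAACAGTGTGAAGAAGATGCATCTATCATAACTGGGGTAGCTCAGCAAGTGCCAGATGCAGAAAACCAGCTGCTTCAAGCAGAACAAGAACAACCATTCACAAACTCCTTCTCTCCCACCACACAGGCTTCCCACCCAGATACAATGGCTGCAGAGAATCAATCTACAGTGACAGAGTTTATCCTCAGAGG
Olfr155: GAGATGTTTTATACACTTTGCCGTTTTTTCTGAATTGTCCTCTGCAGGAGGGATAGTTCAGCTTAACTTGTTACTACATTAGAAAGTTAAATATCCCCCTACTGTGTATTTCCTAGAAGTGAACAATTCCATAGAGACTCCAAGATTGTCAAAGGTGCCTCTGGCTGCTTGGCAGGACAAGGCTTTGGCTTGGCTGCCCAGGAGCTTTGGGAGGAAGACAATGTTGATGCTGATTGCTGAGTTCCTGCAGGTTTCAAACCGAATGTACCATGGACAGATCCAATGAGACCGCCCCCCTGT
The first 3 are marked for G9a. The promoter of Olfr544 (chr7:102488258-102488557, minus strand) had 57 bases in a G9a region higher in the second pair, and that of Olfr558 (chr7:102702073-102702372, plus strand) had 222 bases in another. All 300 bases of the Olfr307 promoter (chr7:86336345-86336644, minus strand) lay in a G9a region higher in the first pair. For H3K9me2, the promoter of Olfr16 (chr1:172956518-172956817, plus strand) lay with all 300 bases in a region higher in the first pair, and that of Olfr1490 (chr19:13654196-13654495, plus strand) with 295 bases in a region higher in the second. For H3K27me3, the promoters of Olfr160 (chr9:37712231-37712530, minus strand; 220 bases) and Olfr155 (chr4:43854042-43854341, plus strand; 300 bases) lay in regions higher in the second pair. H3K27me3 regions higher in the first pair lay over the promoters of Olfr16 (291 and 300 against 209 and 139) and Olfr558. At Olfr558 the pairs overlapped, with 239 and 460 against 288 and 283. The H3K27me3 region at the promoter of Olfr544 was higher in the second pair, with 109 and 162 against 454 and 317. GC content was 51.7% for Olfr544, 51.3% for Olfr558, 46.0% for Olfr160, 45.7% for Olfr155, 40.0% for Olfr16, 37.0% for Olfr1490 and 36.7% for Olfr307.

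G9a regions at receptor genes were mostly higher in the first pair. Of 1131 members, 329 (29.1%) were higher in the second pair, where 44.5% of all G9a regions were. Summed over the members, the values came to 116144 and 125217 for the libraries of the first pair, against 72804 and 112224 for those of the second. Both libraries of the first pair lay above both of the second, although over all regions the pairs overlapped. Sums here and below run over regions listed because the pairs differ, so they are no separate support for a direction. In members higher in the first pair, the median values of the 4 libraries were 102, 107, 21 and 62.5, and the lowest of these belonged to the library that stood apart, in which 9.55% of the members were at 0. Without that library 34.7% of the members, against 48.1% of all regions, were higher in the second pair, so the gap between members and all regions was present without it. Whether that library sets the size of the gap was not tested. Direction also moved with the level: at or above the table's median value per kb, 38.5% of 506 members were higher in the second pair, against 56.8% of all such regions, and under it 21.4% of 625, against 32.2%.

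H3K9me2 regions at receptor genes split about evenly. The second pair was higher in 655 of 1299 members (50.4%), against 44.4% of all H3K9me2 regions. Member sums were 129175 and 120802 against 131586 and 134970, so the second pair lay above the first by a small margin. Over all regions the sums overlapped between pairs, at 23973355 and 23439527 against 22175663 and 23114841. Leaving out 1 library at a time, the share ran from 48.8% to 52.9% in members and from 42.9% to 45.9% over all regions. At or above the median value per kb it was 55.8% of 720 members, against 52.1% of all such regions, and under it 43.7% of 579, against 36.6%.

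H3K27me3 regions at receptor genes were again more often higher in the first pair, but only among those under the median value per kb of the table. The second pair was higher in 720 of 2004 members (35.9%), against 42.7% of all H3K27me3 regions. Member sums overlapped between the pairs, at 395707 and 346916 against 401865 and 328146. Fewer but larger regions were higher in the second pair, with median values of 117, 99, 210.5 and 183 in the 4 libraries. Members higher in the first pair had medians of 151.5, 135, 75 and 51. Of the 864 members at or above the median value per kb of the table, 432 were higher in the second pair, against 53.5% of all such regions, and their median log2 difference was -0.0049 where that of all 2004 members was -0.73. Under that median, 288 of 1140 members (25.3%) were higher in the second pair, against 31.8% of all such regions.

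The size of the differences at receptor genes was that of the tables at large. Median log2 differences (second over first pair mean, with 1 added to each) were -1.12 for G9a members higher in the first pair and 1.02 for those higher in the second, against -1.08 and 1.01 over all regions. For H3K9me2 they were -0.99 and 0.98, against -1.02 and 0.97. For H3K27me3 they were -1.05 and 0.83, against -0.98 and 0.84. Folds at receptor genes were thus close to those of the tables at large, while the shares in each direction differed in all 3, as given above. Median lengths were 600, 650 and 750 bp for G9a, H3K9me2 and H3K27me3.

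The 2 libraries of a pair did not always agree. Both values of the higher pair exceeded both values of the other in 715 of 1131 G9a members (63.2%), where 61.3% of all G9a regions did so. For H3K9me2 this held for 853 members (65.7%, against 67.9% of all regions) and for H3K27me3 for 1375 (68.6%, against 69.2%). These shares were close to those of the tables at large.

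Sorted along the chromosomes, the receptor genes fell into 49 groups separated by more than 1 Mb, on 17 chromosomes. Of these, 22 held at least 10 genes and 1020 genes together, and are called clusters below. The other 27 held 89 genes, 9 of them alone. In G9a the second pair was higher in under 50% of the regions in 20 of the 22 clusters, exactly 50% in 2, and more in none. In H3K27me3 it was under 50% in 18 clusters and over 50% in 4. In H3K9me2 it was under 50% in 12 and over 50% in 10. Cluster by cluster the shares lay between 0% and 50% in G9a, 27.8% and 73.9% in H3K9me2, and 0% and 65.1% in H3K27me3. Without the G9a library that stood apart, 19 clusters were under and 3 over 50%.

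**Figure D1:**
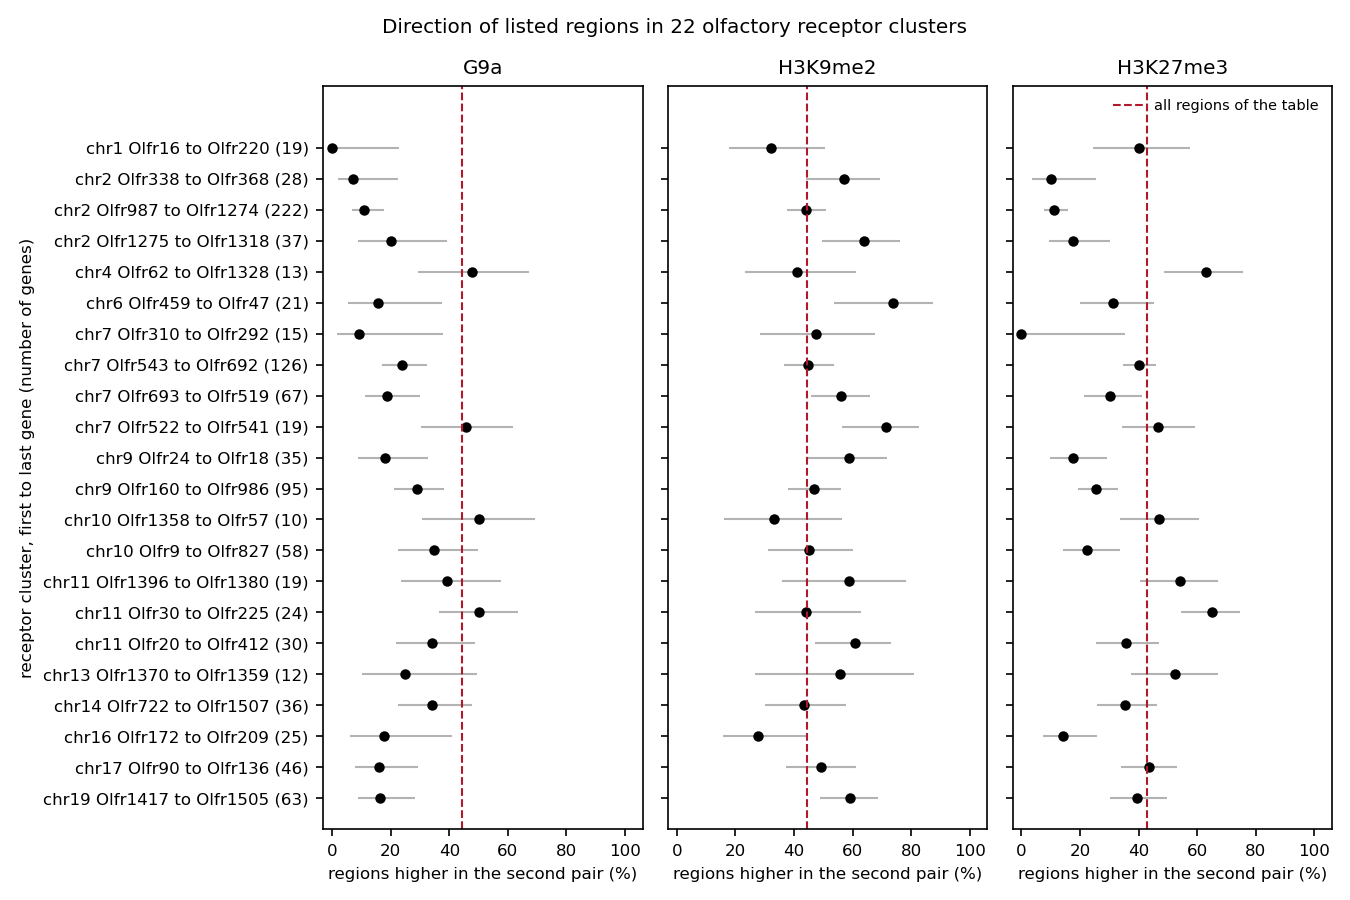
Share of listed regions higher in the second pair (x axis, %) in each of the 22 clusters (y axis, named by the first and last gene), for the 3 tables. Points are shares, grey bars their 95% Wilson intervals, which take neighbouring regions as independent and so are too narrow, and dashed lines the shares over all regions of the table (44.5%, 44.4% and 42.7%). In G9a no cluster passes 50%.

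The largest cluster, with 222 genes from Olfr987 to Olfr1274 over 5.07 Mb (chr2:85330967-90401674), had G9a and H3K27me3 regions that mostly shared a direction. Of its 127 G9a regions 14 (11%) were higher in the second pair, and its summed values were 12134 and 13394 against 3300 and 9049. Of its 232 H3K27me3 regions 26 (11.2%) were higher in the second pair, with sums of 32587 and 29760 against 16548 and 12955. In both tables the first pair lay wholly above the second. Its 208 H3K9me2 regions did not share that lean, with 92 (44.2%) higher in the second pair and sums of 21723 and 19593 against 19242 and 20118, which overlapped. Leaving out 1 library at a time, the share in this cluster ran from 7.09% to 20.5% for G9a and from 10.3% to 20.3% for H3K27me3. The G9a share was 20.5% without the first library of the second pair and 7.09% without its second library, and the H3K27me3 share was 20.3% without the first library of the first pair.

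**Figure D2:**
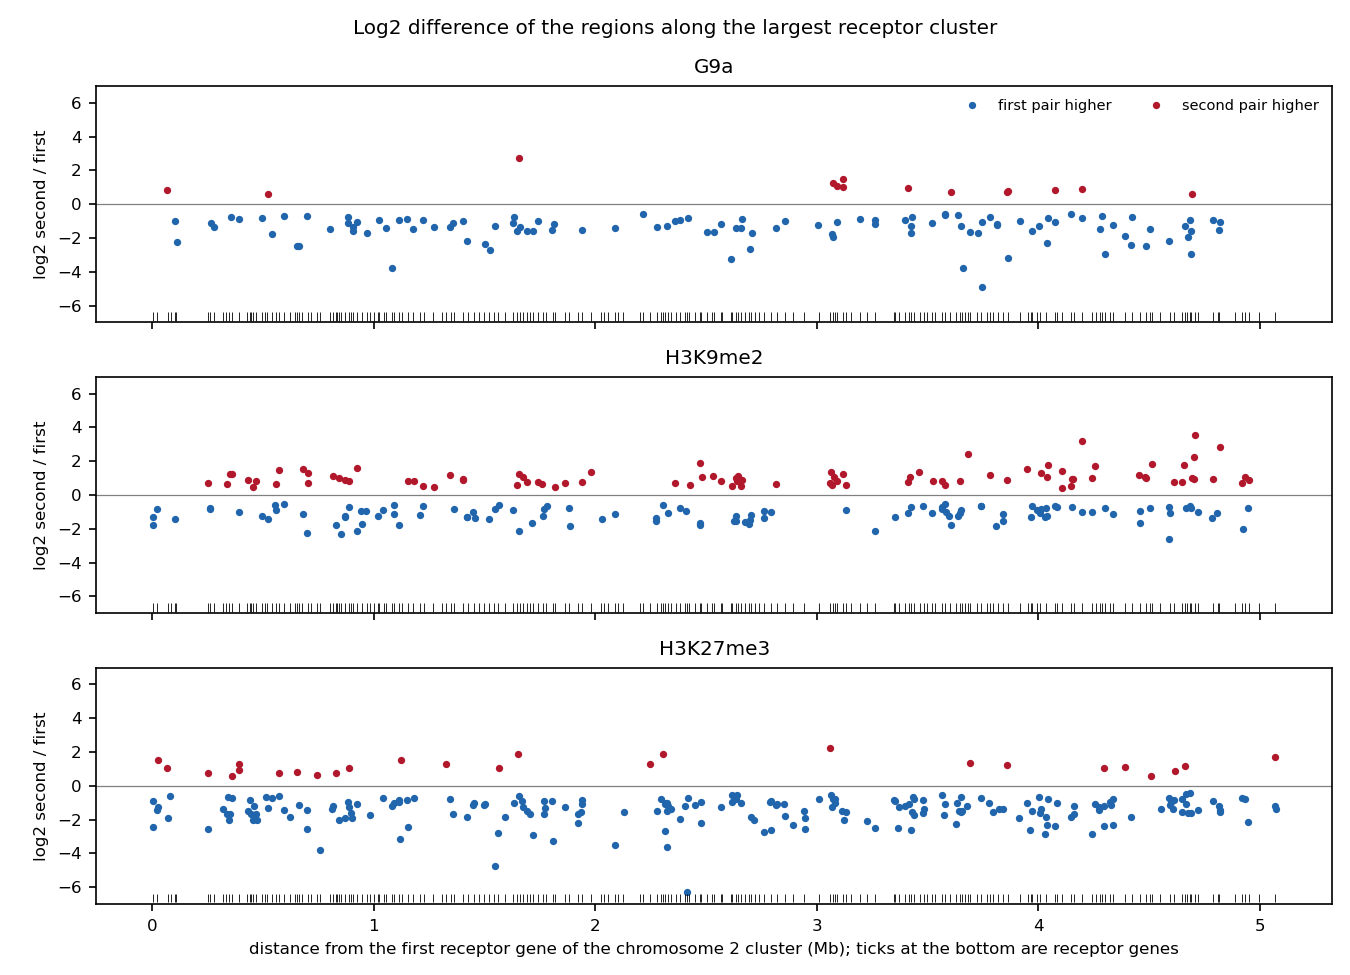
Log2 difference (y axis, second over first pair) of each listed region along the largest cluster on chromosome 2, by distance from its first receptor gene (x axis, Mb), with black ticks for receptor genes. G9a and H3K27me3 points lie mostly below 0 along the whole cluster, and H3K9me2 points lie on both sides.

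Both other chromosome 2 clusters leaned to the first pair in G9a and H3K27me3 too, but not in H3K9me2. Around Olfr338 to Olfr368 (28 genes, chr2:36376778-37332732) 2 of 28 G9a regions (7.14%) and 3 of 30 H3K27me3 regions were higher in the second pair, with G9a sums of 2738 and 3071 against 839 and 1796. In the same cluster 32 of 56 H3K9me2 regions (57.1%) were higher in the second pair, with sums of 4934 and 5069 against 6222 and 6316. Around Olfr1275 to Olfr1318 (37 genes, chr2:111230853-112157007) 5 of 25 G9a regions, 30 of 47 H3K9me2 regions (63.8%) and 9 of 51 H3K27me3 regions (17.6%) were higher in the second pair. In both, the summed H3K9me2 values were higher in the second pair and the summed G9a and H3K27me3 values in the first. The pairs did not overlap in any of the 3 tables, in sums over regions listed because they differ.

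The class I cluster around the beta-globin genes (126 genes from Olfr543 to Olfr692, chr7:102476773-105369317) had 117 G9a regions, 28 of them (23.9%) higher in the second pair, with sums of 12240 and 12246 against 6541 and 10604. Its 127 H3K9me2 regions were higher in the second pair in 57 cases (44.9%). It had 281 H3K27me3 regions, 113 of them (40.2%) higher in the second pair, and the sums of 48166 and 43727 against 47644 and 38780 overlapped. The neighbouring class II cluster (67 genes from Olfr693 to Olfr519, chr7:106677534-108894405) had 79 H3K27me3 regions, with sums of 13200 and 11164 against 10698 and 8804. Per listed kb, values in the class I cluster were 188 and 170 against 186 and 151, and in its neighbour 198 and 167 against 160 and 132.

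Some smaller clusters pointed the other way for H3K27me3. On chromosome 11, the cluster of 24 genes from Olfr30 to Olfr225 (chr11:58454915-59614225) had 83 H3K27me3 regions over 123 kb, 54 of them (65.1%) higher in the second pair, with sums of 24793 and 23379 against 36568 and 29025. G9a regions of this cluster were split 24 to 24. The 13 genes from Olfr62 to Olfr1328 on chromosome 4 (chr4:118665519-118934840) had 46 H3K27me3 regions over 75.7 kb, 29 of them (63.0%) higher in the second pair, with sums of 15494 and 14489 against 22078 and 18912. In both clusters the second pair lay wholly above the first. The remaining 2 clusters over 50% were those of Olfr1396 to Olfr1380 on chromosome 11 (54.0% of 50 regions) and of Olfr1370 to Olfr1359 on chromosome 13 (52.5% of 40).

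H3K9me2 had its own order of clusters. The highest shares were at Olfr459 to Olfr47 on chromosome 6 (17 of 23 regions, 73.9%; sums of 1802 and 1640 against 2430 and 2586) and at Olfr522 to Olfr541 on chromosome 7 (30 of 42, 71.4%; 4216 and 3653 against 5294 and 5428). The lowest was at Olfr172 to Olfr209 on chromosome 16 (10 of 36, 27.8%), with sums of 4011 and 3648 against 3165 and 2931. Across the 22 clusters, the median log2 difference of G9a followed that of H3K27me3 (Pearson r = 0.596, Spearman rho = 0.731), while H3K9me2 followed neither (r = -0.169 with G9a and -0.00345 with H3K27me3). The points share the base composition and the length of the clusters, and no p is given.

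**Figure D3:**
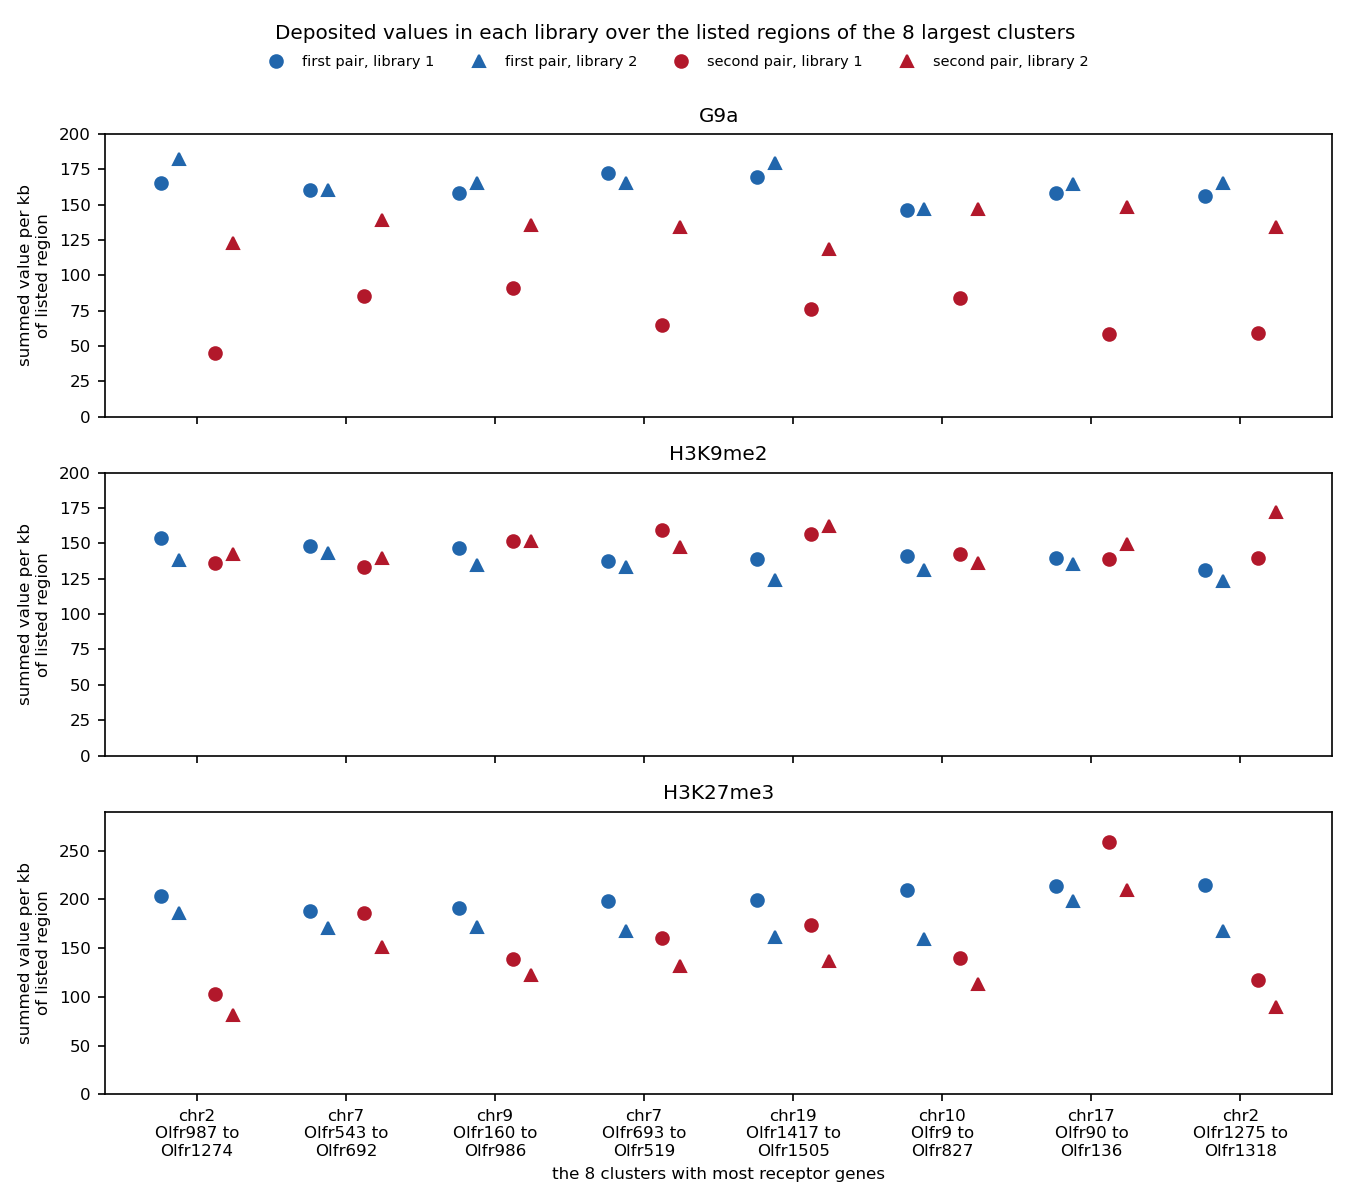
Summed deposited value per kb of listed region (y axis) in each of the 4 libraries for the 8 clusters with most genes (x axis), blue for the first pair and red for the second. In G9a the first library of the second pair is lowest in all 8 clusters, and in H3K27me3 the largest cluster has 203 and 186 in the first pair against 103 and 80.8 in the second.

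Chromosomes repeated the picture of their clusters. On chromosome 2, with 287 receptor genes, 21 of 180 G9a members (11.7%) and 38 of 313 H3K27me3 members (12.1%) were higher in the second pair, where 46.3% and 43.9% of all regions of that chromosome were. Chromosome 7, with 239 genes, had 26.4% of 242 G9a members and 39.3% of 455 H3K27me3 members in that direction, against 46.6% and 47.9% of its regions. Chromosome 9, with 130 genes, had 26.0% and 23.4%, against 47.4% and 46.8%. Chromosome 15, with 9 genes in a smaller group and no cluster, lay on the other side. There 14 of 22 G9a members (63.6%), 7 of 10 H3K9me2 members (70.0%) and 24 of 40 H3K27me3 members (60.0%) were higher in the second pair. Of all regions of that chromosome 45.1%, 44.6% and 41.1% were. Among chromosomes with at least 20 members, the receptor share lay below that of the whole chromosome in 10 of 13 for G9a, 3 of 12 for H3K9me2 and 9 of 14 for H3K27me3. The 6 receptor genes of the X chromosome had 5 regions, all of H3K27me3.

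Receptor genes outside the clusters differed from those within them. At the smaller groups and single genes 83 of 156 G9a members (53.2%) were higher in the second pair, against 246 of 975 (25.2%) in the clusters. For H3K27me3 it was 128 of 233 (54.9%) against 592 of 1771 (33.4%), and for H3K9me2 42 of 79 (53.2%) against 613 of 1220 (50.2%). The group of 6 genes from Olfr70 to Olfr155 on chromosome 4 (chr4:43695000-43855463) had 11 of 15 G9a regions and 9 of 11 H3K27me3 regions higher in the second pair. Its G9a sums were 2057 and 2360 against 4096 and 3640, and its H3K27me3 sums 8725 and 7866 against 15666 and 13945, without overlap. The 8 genes from Olfr1416 to Olfr12 on chromosome 1 (chr1:92479681-92621001) had 21 of 32 G9a and 19 of 24 H3K27me3 regions in that direction, with H3K27me3 sums of 13073 and 11734 against 19896 and 17994. Not all small groups did so. The 8 genes from Olfr164 to Olfr171 on chromosome 16 had 6 of 14 G9a and 3 of 12 H3K27me3 regions higher in the second pair. Those from Olfr1344 to Olfr1350 on chromosome 7 had 4 of 9 and 11 of 22. No test of these differences was made, since regions of a cluster are neighbours and not independent.

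The DNA between the receptor genes of a cluster leaned like the genes. Inside the clusters but beyond 2500 bp from any receptor gene, 33.0% of 3491 G9a regions, 1959 of 3915 H3K9me2 regions and 31.4% of 6551 H3K27me3 regions were higher in the second pair. Within 1 Mb outside the clusters the shares were 46.0% of 7462, 45.3% of 3835 and 46.6% of 9662, close to those of the tables at large. Vomeronasal receptor genes, a second family of chemoreceptors in clusters, had 21.0% of 509 G9a regions, 42.1% of 739 H3K9me2 regions and 22.2% of 1006 H3K27me3 regions higher in the second pair.

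The broadest H3K27me3 regions at receptors were all higher in the second pair, as were 35.9% of all H3K27me3 members. Of the members, 17 were at least 5 kb long, and all 17 had that direction. This is not particular to receptors, since 99.6% of the 7247 H3K27me3 regions of that length were. No G9a or H3K9me2 member reached 5 kb. The longest, of 12500 bp, covered Olfr155 (chr4:43845201-43857700), with values of 2790 and 2349 against 5199 and 4304. A region of 10300 bp covered Olfr462 and ended 287 bp from Olfr463 (chr11:87882401-87892700; 3032 and 2464 against 5268 and 4115). A region of 9400 bp covered Olfr159 (chr4:43767751-43777150; 1630 and 1570 against 3515 and 2702). The pairs did not overlap in any of the 3. Within the class I cluster a region of 7600 bp lay at Olfr65 and Olfr631 (chr7:103906101-103913700; 1359 and 1608 against 2729 and 1823).

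Counted by gene, 582 of 1109 receptor genes had a G9a region higher in the first pair, or 52.5%, and 233 (21.0%) had one higher in the second. Among all protein-coding genes it was 77.1% and 55.8%. H3K9me2 gave 488 (44.0%) and 493 (44.5%), where 48.4% and 39.0% of all genes had such a region. H3K27me3 gave 761 (68.6%) and 386 (34.8%), against 58.5% and 50.7%. A region of either direction was present at 678, 761 and 866 receptor genes for G9a, H3K9me2 and H3K27me3, where 84.4%, 58.4% and 67.1% of all genes had one. Receptor genes have a median length of 951 bp and other genes 18858 bp, so these counts search less DNA at receptors.

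Coverage is a share of the DNA searched, in which flanks weigh more at the short receptor genes. Bodies took 2.12 Mb of 7.59 Mb at receptors and 1028 Mb of 1105 Mb at other genes. Of the 7.59 Mb within receptor genes and their 2500 bp flanks, G9a regions higher in the first pair covered 6.12% and those higher in the second 3.03%, against 5.18% and 5.97% at other genes. H3K9me2 regions covered 4.94% and 5.70%, against 2.62% and 2.06%, so H3K9me2 differences took about 10.6% of receptor DNA and 4.68% of the DNA of other genes. H3K27me3 regions covered 11.8% and 9.81%, against 7.35% and 12.4%. In receptor gene bodies alone the figures were 8.85% and 3.76% for G9a, 6.37% and 8.80% for H3K9me2 and 13.1% and 13% for H3K27me3. In the bodies of other genes they were 5.17% and 5.78%, 2.65% and 2.07%, and 7.34% and 12.0%.

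Single receptors combined the tables in many ways. In G9a, 445 receptor genes had first-pair regions alone, 96 second-pair regions alone, 137 both and 431 none. In H3K9me2 the counts were 268, 273, 220 and 348, and in H3K27me3 480, 105, 281 and 243. A region was present in all 3 tables at 414 receptor genes (37.3%, against 44.2% of all protein-coding genes) and in none at 53 (4.78%, against 8.38%). At 218 genes (19.7%, against 7.02%) both G9a and H3K27me3 had first-pair regions alone, and at 20 (1.80%, against 1.57%) both had second-pair regions alone. At 47 of those 218 genes (4.24% of receptor genes, against 0.845%) H3K9me2 had second-pair regions alone. First-pair regions alone in all 3 tables were present at 58 genes (5.23%, against 1.74%) and second-pair regions alone at 5 (0.451%, against 0.170%). Receptor genes are the shorter ones, and the part of gene length in these shares was not tested.

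Regions of different tables often lay on the same DNA. Of the G9a members 51.8% shared at least 1 bp with an H3K27me3 region, close to the 55.7% of all G9a regions, and 32.2% with an H3K9me2 region, where 19.8% of all G9a regions did. Of the H3K9me2 members 46.7% overlapped an H3K27me3 region, against 52.1% of all, and of the H3K27me3 members 31.5% overlapped an H3K9me2 region, against 23.2%. Overlaps of G9a and H3K27me3 mostly shared a direction. Of 802 G9a members higher in the first pair, 246 (30.7%) overlapped an H3K27me3 region of that direction and 146 (18.2%) one of the other. Of 329 higher in the second pair, 159 (48.3%) overlapped one of that direction and 88 (26.7%) one of the other. Over all G9a regions the same figures were 26.1% and 23.4%, and 52.3% and 23.2%.

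Regions at receptors gathered over the coding sequence. At 500 bp inside the annotated start, 13.9% of 944 receptor genes with a known strand had a G9a region higher in the first pair, against 3.2% at 500 bp before the start. H3K9me2 regions with the higher values in the second pair lay at 15.8% and 2.4% of genes, and those with the higher values in the first at 10.4% and 2.5%. H3K27me3 regions higher in the second pair went from 9.0% to 16.7%, and those higher in the first from 9.0% to 14.3%. Other genes were flatter over the same distance. For them G9a regions higher in the first pair went from 4.5% to 6.3%, and H3K9me2 regions higher in the second lay at 1.57% of genes at the one distance and 1.54% at the other. The annotated starts of receptor and other genes may not mark the same point of a gene.

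**Figure D4:**
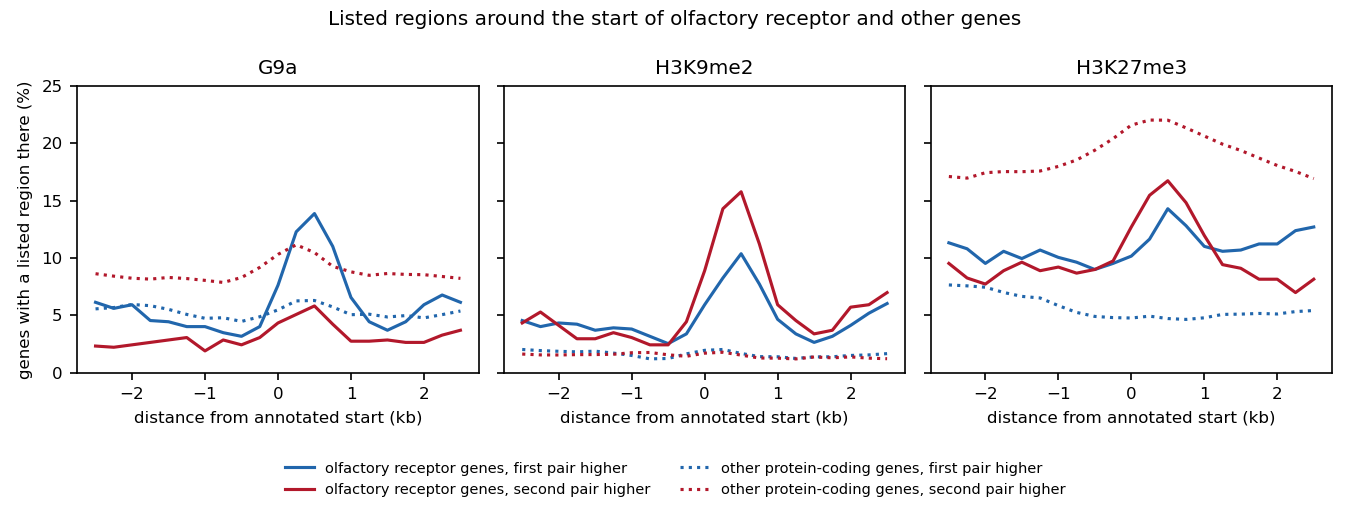
Share of genes with a listed region (y axis, %) at each distance from the annotated start (x axis, kb, in the direction of the gene), for 944 olfactory receptor genes (solid) and 16547 other protein-coding genes (dotted), by the higher pair. Receptor genes peak at 0.5 kb in all 3 tables, at 13.9% for G9a regions higher in the first pair and at 15.8% for H3K9me2 regions higher in the second.

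Direction differed between gene bodies and flanks for both histone marks. Of the H3K9me2 members touching a receptor gene body 312 of 564 (55.3%) were higher in the second pair, against 343 of 735 (46.7%) of those in the flanks alone. For H3K27me3 it was 349 of 820 (42.6%) against 371 of 1184 (31.3%). G9a members gave 29.1% and 29.0%. These differences were not tested, for the reason given above.

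Receptor promoters are poor in G and C, and direction moved with that content. The median GC content was 35.0% over 944 receptor promoters and 57.0% over 16547 others. Where the annotated start is a start codon, the window lies beside the coding sequence, so receptor and other windows may not be alike. Of 455 receptor promoters under the receptor median, G9a regions higher in the first pair touched 40 (8.79%) and those higher in the second touched 1 (0.220%). Of the 489 at or over it, they touched 50 (10.2%) and 44. H3K27me3 regions touched 50 and 10 of the promoters under the median, and 73 and 126 of the others. H3K9me2 regions touched 35 and 31, and 34 and 73. The promoters of other genes, richer in GC, were touched by 7.51% and 12.7% for G9a, 2.66% and 2.21% for H3K9me2 and 6.42% and 23.4% for H3K27me3. In all 3 tables second-pair regions were thus a smaller part at receptor promoters of low GC than at those of high GC. The part of base composition in the lean of the clusters was not tested.

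**Figure D5:**
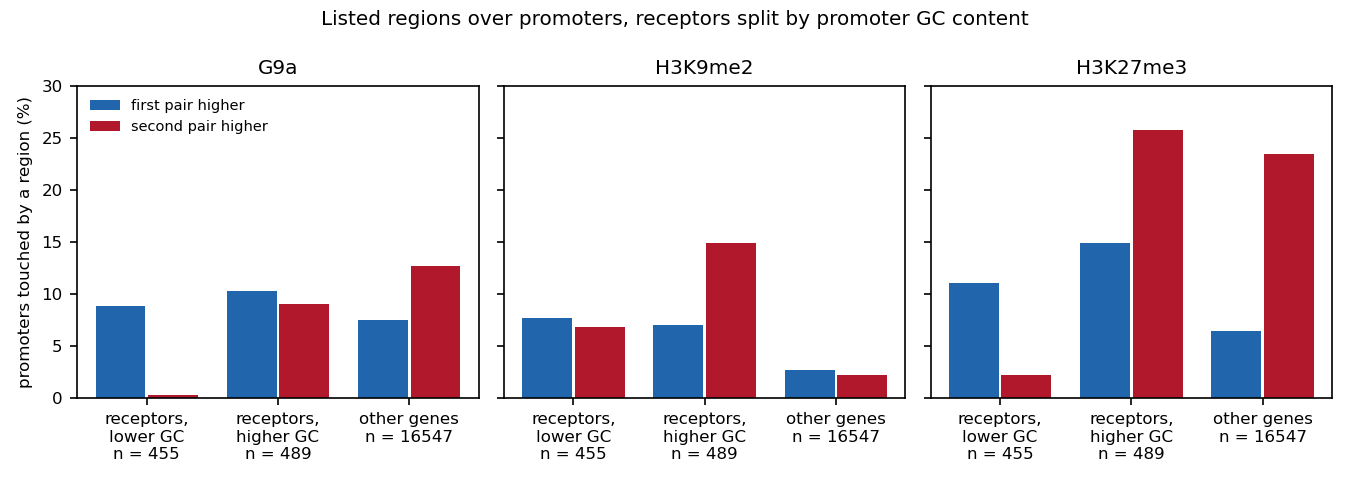
Share of promoters touched by a listed region (y axis, %; 250 bases before to 50 after the start), for 455 receptor promoters under and 489 at or over the receptor median of GC content, and for 16547 other genes. Second-pair regions (red) touched 1 of the 455 lower-GC receptor promoters for G9a, against 44 of the 489 higher-GC ones.

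TAATTA, a homeodomain motif searched on both strands, was found in 176 of 944 receptor promoters (18.6%) and in 3.87% of the others. CCCNNGGG, the core bound by Ebf factors and its own reverse complement, was found in 29 (3.07%) and in 16%. The motifs share no fixed letter at any position. TAATTA holds only A and T, and the fixed letters of CCCNNGGG are all C and G. Median GC content was 35.0% in receptor promoters and 57.0% in the others. The part of base composition in these motif shares was not tested, and no gain or loss of binding sites is read from them. None of the 7 printed promoters holds either in this window. Among receptor promoters with TAATTA, H3K27me3 regions touched 20 (first pair higher) and 13 (second) of 176. Among those without it, they touched 103 and 123 of 768. Median GC content of the touched promoters was 33.8% and 42.7% with the motif and 37.7% and 43.3% without.

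The strongest G9a differences are named by the p of the authors' deposited table. Higher in the first pair, the smallest p belonged to a region 1028 bp beside Olfr1361 (chr13:21665551-21666800; 406 and 340 against 7 and 119). Next came a region 1009 bp downstream of Olfr1061 in the largest cluster (chr2:86411151-86412100; 206 and 229 against 6 and 24; log2 difference -3.77). The third overlapped the body and promoter of Olfr307 (chr7:86335851-86337200; 368 and 275 against 39 and 79; log2 difference -2.43), whose promoter stands above. The fourth overlapped Olfr1387 (chr11:49459351-49460300; 305 and 142 against 42 and 1). The pairs did not overlap in any of these 4 regions. They were picked by their small p, and 61.3% of all G9a regions had no overlap either. In 3 of the 4 the first library of the second pair was the lowest value.

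Higher in the second pair, the G9a region ranked at the top by the p of the authors' deposited table covered Olfr71 and reached to 1794 bp upstream of Olfr70 (chr4:43702601-43706600; 643 and 609 against 1797 and 1098; log2 difference 1.21). A region of 4500 bp covered Olfr279 (chr15:98494951-98499450; 317 and 466 against 1178 and 782; log2 difference 1.32). At Olfr544, in the class I cluster, a region beginning 194 bp upstream had values of 105 and 95 against 545 and 299 (chr7:102488501-102489800; log2 difference 2.07). One overlapping Olfr170 (chr16:19604751-19605750) had 4 and 108 against 421 and 163. Again the pairs did not overlap in any of the 4, which were also picked by their small p.

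H3K9me2 regions are named by the same rule. Among members at or above the table's median value per kb, the largest log2 difference was -2.56 in the first-pair direction and 4.25 in the second. Higher in the first pair were regions 1758 bp upstream of Olfr705 (chr7:106876001-106877300; 248 and 386 against 63 and 43), 2342 bp upstream of Olfr683 (chr7:105146651-105148800; 575 and 363 against 110 and 169), and within Olfr1033 (chr2:86029751-86030900; 288 and 287 against 59 and 63). Higher in the second pair were regions 2014 bp downstream of Olfr435 (chr6:43204601-43205450; 1 and 21 against 166 and 290), 251 bp downstream of Olfr1265 (chr2:90038101-90038950; 28 and 6 against 164 and 250) and within Olfr851 (chr9:19503451-19504450; 32 and 49 against 204 and 318). A region covering Olfr1490, whose promoter stands above, had 82 and 77 against 363 and 328 (chr19:13654201-13655550; log2 difference 2.11). The libraries of a pair lay close together at Olfr1033 and Olfr1490 and apart at Olfr435, where 1 of the first pair was near 0.

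For H3K27me3, the 4 smallest p in the first-pair direction of the authors' deposited table lay on chromosomes 9 and 2. They were a region within Olfr27 (chr9:39138951-39140300; 277 and 326 against 2 and 65), one 2279 bp downstream of Olfr961 (chr9:39649951-39651700; 563 and 299 against 138 and 40), one 108 bp downstream of Olfr1026 (chr2:85924301-85926950; 862 and 585 against 343 and 199) and one 1928 bp upstream of Olfr926 (chr9:38873701-38875250; 371 and 360 against 36 and 110). Olfr27 had a G9a region of the same direction in its body (chr9:39132651-39133400; 138 and 181 against 29 and 9). In the second-pair direction they were the broad regions at Olfr155, Olfr462, Olfr159 and Olfr1395, the last of them at chr11:49139101-49145900 with 1042 and 1135 against 2725 and 1927. In the class I cluster the smallest p belonged to a region beside Olfr632 (chr7:103934701-103936950; 214 and 202 against 625 and 565). The pairs did not overlap in any of these regions, which were picked by their small p. Of all H3K27me3 regions, 69.2% had no overlap.

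Among the regions with the smallest p of each of the 8 clusters with most genes, those at Olfr770 on chromosome 10 pointed in opposite directions. Downstream of that gene, a G9a region (chr10:129130801-129131650) had 290 and 65 against 7 and 60. The H3K9me2 region over it (chr10:129130651-129132200) had 121 and 122 against 253 and 376. The lowest first-pair G9a value, 65, stood only just above the highest of the second, 60.

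Receptors known for work outside the nose, or used as models within it, varied among themselves. Olfr544, a class I receptor reported in liver and fat, had its promoter region raised in the second pair for G9a, as above, and for H3K27me3 (chr7:102488451-102489950; 109 and 162 against 454 and 317; log2 difference 1.5). Within its body 1 G9a region (chr7:102485801-102487800; 473 and 368 against 186 and 224) was higher in the first pair and another (chr7:102484401-102485200; 123 and 89 against 237 and 201) in the second, so that 3 of its 4 G9a regions were higher in the second pair. The pairs did not overlap in any of these regions. The other H3K27me3 region of Olfr544 (182 and 244 against 207 and 40, which overlapped) and its 1 H3K9me2 region were higher in the first pair. Olfr78, a class I receptor of kidney vessels and carotid body, had 17 regions, among them 3 of 4 G9a regions higher in the first pair and 6 of 11 H3K27me3 regions higher in the second. Olfr558, a class I receptor of vascular smooth muscle, had a G9a region over its start higher in the second pair (chr7:102702151-102702700; 41 and 18 against 100 and 112). Further into its body 3 H3K27me3 regions were higher in the first pair without overlap, the largest with 588 and 503 against 264 and 228 (chr7:102706101-102707850).

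Among class II receptors used as models, Olfr1507 (MOR28) had 7 regions, all higher in the first pair, among them an H3K27me3 region overlapping 1 edge of its body with 193 and 164 against 93 and 10 (chr14:52495151-52496000). In its 2 G9a regions the pairs overlapped. Olfr73 (mOR-EG) had 1 region per table, all 3 higher in the first pair without overlap; that of H3K27me3 overlapped its body (chr2:88033751-88034950; 330 and 235 against 98 and 58). Olfr16 (MOR23) had an H3K9me2 region over its promoter with 228 and 245 against 120 and 43 (chr1:172955851-172957150). A G9a region within its body had 134 and 150 against 4 and 66 (chr1:172956851-172957550). Olfr17 (P2) had opposite directions in its body, with a G9a region of 104 and 150 against 53 and 102 (chr7:107097601-107098350) and an H3K9me2 region of 52 and 81 against 167 and 132 (chr7:107097751-107098550). In that G9a region the pairs were apart by a margin of 104 over 102. All 3 G9a regions of Olfr17 and 2 of its 3 H3K9me2 regions were higher in the first pair. Olfr160 (M72) had its H3K27me3 promoter region at 168 and 85 against 348 and 174 (chr9:37711451-37712450), where the second pair exceeded the first by a margin of 174 over 168. In all, 2 of its 3 H3K27me3 regions were higher in the second pair. Its 2 G9a regions and 1 H3K9me2 region were higher in the first. Olfr2 (I7) had 2 H3K9me2 and 2 H3K27me3 regions and none of G9a. Olfr151 (M71) is annotated as a pseudogene in the gene table and was not a member.

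The genes with most regions were long ones by the standard of the family. Olfr91 (40147 bp) had 41 regions, 28 of them of H3K27me3, of which 18 were higher in the second pair. Olfr183 (71199 bp) had 38, with 19 of 23 H3K27me3 regions higher in the first pair. Olfr687 (48745 bp) had 36, Olfr1358 (23101 bp) 34 and Olfr18 (22203 bp) 23. At Olfr1358 9 of 12 G9a and 12 of 18 H3K27me3 regions were higher in the second pair. All 6 H3K9me2 regions of Olfr18 were higher in the second pair, while 6 of its 7 G9a regions were higher in the first.

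The differences of single regions were set against the spread within pairs. With limma on log2(value + 1) of all regions of a table and Benjamini-Hochberg adjustment, 0 of the members passed an adjusted p of 0.05 in each of the 3 tables, and 0 (0%) of all G9a, 1 (0.000408%) of all H3K9me2 and 0 (0%) of all H3K27me3 regions did. At an unadjusted p under 0.05 limma gave 72 of 1131 G9a members (6.37%, against 6.70% of all regions), 171 of 1299 H3K9me2 members (13.2%, against 11.8%) and 364 of 2004 H3K27me3 members (18.2%, against 18.8%). The smallest adjusted p of a member by limma was 0.471 for G9a, 0.383 for H3K9me2 and 0.179 for H3K27me3, the last at the broad region of Olfr155. Across the other settings tried, limma likewise called 0 members, although with the filter on low values it called 885 of 276375 H3K27me3 regions (0.320%) and 11 of 122997 H3K9me2 regions, and with a pseudocount of 10 it called 48 and 27. The count of 0 does not show that the members did not differ. Over all settings the smallest adjusted p of a member by limma lay between 0.0538 and 0.841 in G9a, 0.276 and 0.543 in H3K9me2, and 0.0547 and 0.439 in H3K27me3. A two-sided exact permutation test on 2 against 2 values has p = 0.333 as its smallest outcome.

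Genes that serve the receptors were also touched. Of 19 genes of olfactory transduction and receptor choice, among them the G protein Gnal, the cyclase Adcy3, the channel subunits Cnga2, Cnga4 and Cngb1, the chaperones Rtp1 and Rtp2 and the factors Lhx2, Ldb1 and Ebf1 to Ebf4, 17 had a G9a region higher in the first pair and 15 one higher in the second. For H3K9me2 it was 12 and 14, and for H3K27me3 15 and 15. Only Cnga2 lacked a G9a region, and Atf5, Ldb1 and Ric8b lacked one of H3K27me3. Among all protein-coding genes the shares are 77.1% and 55.8% for G9a, 48.4% and 39.0% for H3K9me2 and 58.5% and 50.7% for H3K27me3, and no lean is read from these counts.

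Markers of heart cells could not be read as levels, since the tables list differing regions alone. Of 6 cardiomyocyte markers (Myh6, Tnnt2, Actn2, Ryr2, Myl2 and Tnni3), 0 had an H3K27me3 region, and 2 had a G9a region higher in the first pair and 3 one higher in the second. H3K27me3 regions lay at 5 of 5 fibroblast markers, 5 of 5 endothelial markers and 4 of 5 leukocyte markers, in both directions at most of them. Of all protein-coding genes 67.1% had an H3K27me3 region, and 77.1% and 55.8% had a G9a region higher in the first and in the second pair. Whether the makeup of the cells differs between the pairs was not tested.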

How the data were processed

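Chromatin of 12 immunoprecipitated libraries (2 replicates for each of 3 antibodies and 2 conditions) entered the deposited tables, and 2 input libraries were not used here. Per the labels, the library kit was NuGEN Ovation Ultralow V2 and the antibodies were G6919 (G9a), ab1220 (H3K9me2) and 07-449 (H3K27me3). Per the submitters' processing notes, BWA 0.7.10-r789, SAMtools 1.1 and the mm10 build were used. No source used here names the program that called the differing regions, the scaling of values or any input correction.

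Each table lists regions with a column deposited by the authors that packs 4 whole-number values, as 2 pairs of libraries, with the −log10 p-value of the authors, none of which was above 0.01 as a p. The values were not treated as raw counts, and the p-values are used to rank regions and, in an alternative setting below, as a threshold. The pairs name neither condition nor replicate. Genes came from the RefSeq table of GRCm38.p6, in which 108 of 21883 protein-coding entries could not be placed. Members and lists were chosen with earlier results of these data known.

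Log2 differences are log2(mean of the second pair + 1) minus log2(mean of the first pair + 1). The fit was limma 3.58.1 (R 4.3.3) with trend on log2(value + 1) of all regions of a table, with Benjamini-Hochberg adjustment. It is a second look at regions already listed because they differ. In simulated data with the spread within pairs of these tables, it recovered none of the smallest changes put in. For G9a it recovered none of the changes of any size put in. The lack of members past it therefore does not show that they did not differ. Other steps used Python 3.11.15, pandas 2.3.3 and numpy 2.4.6. Shares in the plot of direction by cluster have 95% Wilson intervals. Named were, per table and direction, the 4 members with the smallest deposited p and the one with the largest log2 difference among those at or above the table's median value per kb. Also named were the member with the smallest p in each of the 8 clusters with most genes, the 5 genes with most regions, and 10 well-known receptors. Alternatives were a pseudocount of 10, equal sums, a filter on low values, a −log10 p of at least 5, gene bodies alone, a gap of 0.5 Mb and leaving out each library.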

Additional observations from a re-analysis of the deposited data

How the results depend on the processing

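No paired analysis was possible because the tables do not say which replicate a value belongs to. Leaving out 1 library at a time, the share of members higher in the second pair ran from 25.1% to 34.7% for G9a and from 33.9% to 41.4% for H3K27me3. The median log2 difference of H3K9me2 members, 0.47 with all libraries, was 0.20 without the first library of the first pair and turned to -0.026 without the second library of the first pair, to -0.058 without the first library of the second pair and to -0.059 without its second library, so it has no firm sign. With gene bodies alone, the share was 55.3% for H3K9me2 and 42.6% for H3K27me3. Genes with a region higher in the first and in the second pair then numbered 298 and 124 for G9a, 216 and 275 for H3K9me2, and 348 and 257 for H3K27me3. At a deposited −log10 p of at least 5 these counts were 347 and 121 for G9a and 236 and 288 for H3K9me2, and 55.0% of the H3K9me2 members were higher in the second pair. Requiring pairs that do not overlap left 149 genes with a G9a region higher in the second pair. Among H3K27me3 members over no receptor promoter, a choice made after seeing the data, 33.4% were higher in the second pair. With the filter on low values the median log2 difference of H3K27me3 members went from -0.73 to -0.0049. The shares higher in the second pair, a choice made after seeing the data, were then 38.5% for G9a, 55.8% for H3K9me2 and 50% for H3K27me3. When an overlap had to cover at least 50% of the region, 34.9% of H3K9me2 members overlapped H3K27me3, and 23.3% and 41.1% of G9a members overlapped H3K9me2 and H3K27me3. The cause of these shifts was not tested. Of the 44 named regions, 0 changed direction with a pseudocount of 10, equal sums or any library left out. The unknown scaling and depth, and 2 libraries per pair, limit what single regions can show.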
